A study of Mus musculus with 150 samples.

Results

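Replication timing was examined in 4 mouse embryonic stem cell clones edited between Dppa4 and Dppa2 on chromosome 16, in which a stretch of about the same DNA was either deleted or turned around. The clones were taken by the coordinates of their edits in the sample labels, and they account for 12 of the 150 samples of the series, as 6 of its 75 pairs of an early and a late S-phase fraction. Clone A10 of the 28.5kdel had lost chromosome 16 positions 48284012 to 48311882 (mm10, 27.9 kb) and clone B7 of the 28.5kinv carried the same interval inverted, each with 2 repeat libraries. Clone 9 of the 28kdel had lost 48308399 to 48336437 (28.0 kb) and clone 3 of the 24.5kinv carried 48311882 to 48336437 (24.6 kb) inverted, each with 1 library. All were cas/129 hybrid cells on gelatin, in DMEM with 2i and LIF, edited with CRISPR, pulsed with BrdU and sorted on propidium iodide. Every edit was represented by 1 clone. Each profile has a svim column and a cast column, one per parental genome, and the labels do not say which allele was edited.

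The clones used for comparison were 4 further cas/129 clones whose edits leave the Dppa4 to Dppa2 interval in place, because no unedited cas/129 profile is among the listed samples. They were 30kdel B11 and 30kdel C2 (48665576 to 48695490), 29kdel D8 (48235963 to 48264883) and 14kdel D11 (48264884 to 48280115). Each therefore carries a deletion of its own in or near the same domain. The 30kdel starts 45.2 kb beyond the right end of the domain, and the 29kdel and 14kdel lie inside it, left of Dppa4. The deposited scores also hold 6 columns that match no listed sample. Those columns were not used, and unedited profiles may be among them.

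In each S phase, large stretches of chromosome replicate together at a characteristic time, and early replication goes with open, gene-active chromatin. Dppa2 and Dppa4 encode paired DNA-binding proteins of pluripotent cells, and their domain replicates early in embryonic stem cells. A deletion removes a sequence and brings its neighbours together, whereas an inversion keeps the sequence and changes its orientation and its distance to other elements. The labels of the series name short intervals of this domain a, b and c, which are deleted singly or together in other clones. Setting a deletion beside an inversion of the same interval asks whether timing follows the presence or the arrangement of that DNA.

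The edits overlap the genes differently. Dppa4 (48283735 to 48294292) lies to 97.4% inside the 28.5kdel and the 28.5kinv and outside the other edits. Dppa2 (48310274 to 48319513) lies to 17.4% inside the 28.5 kb edits, to 100% inside the 28kdel and to 82.6% inside the 24.5kinv. Morc1 (48431237 to 48630905), which encodes a germline ATPase that represses transposons, is touched by none of them. Interval a (48308399 to 48311882, 3.48 kb) is the only stretch that both deletions removed. The 28.5kinv carries it inside the inverted stretch, where an exact inversion would place it at 48284012 to 48287495, 24.4 kb from its reference position, so that its distance to interval b grows from 84.9 to 109 kb. In the 24.5kinv it stays in place just left of the inversion, so the 28kdel and its partner inversion differ in interval a as well.

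The value in every profile is the authors' replication timing score, with 1 value per 5 kb, in which higher is earlier: early control genes scored above late control genes in 100 of 100 columns. No log base is given in the sources used here, and all differences are therefore stated as score units. The domain spans 48190131 to 48620367 (430 kb), and each regional value is the mean over the positions left once the compared edits and the comparison clones' own deletions were taken out of every profile. This left 71 of the domain's positions in each pair, but only 9 in the part of the domain left of Dppa4. The svim column was blank inside both deletions, while the cast column held values there, and neither inversion had a blank on either allele. Which allele carries each inversion is therefore unknown. A deletion minus inversion difference on svim may set a deleted allele beside one that was not inverted.

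One clone stands apart over the whole chromosome. Across 1791 windows of 50 kb over 2 Mb from every labelled edit end, the 24.5kinv profile correlated with the mean of the comparison clones at r = 0.90 on svim and 0.90 on cast, the lowest of 43 cas/129 clones on both alleles. The windows are neighbours on 1 chromosome and the r is a description. The other 3 edited clones reached 0.98 to 0.99. Against the comparison clones, limma placed 249 of 1892 windows of the 24.5kinv past an adjusted p of 0.05 on svim (13.2%), 31 lower and 218 higher. On cast it placed 152 (8.03%), and on the svim minus cast difference 8 (0.423%). A common median and interquartile range moves this clone's columns down by a nearly constant amount, taking the median of all windows from -0.32 to -1.48 on svim and from -0.21 to -1.41 on cast. The counts moved with that shift, to 1099 windows lower and 34 higher on svim and 977 lower and 36 higher on cast. After quantile normalization 52 were lower and 46 higher on svim and none passed on cast, and without 30kdel B11 none passed on either allele and 37 passed on their difference. All 10 early control genes scored lower in it on both alleles, with a median difference of -0.98 on svim and -0.91 on cast and none past the threshold.

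**Figure D1:**
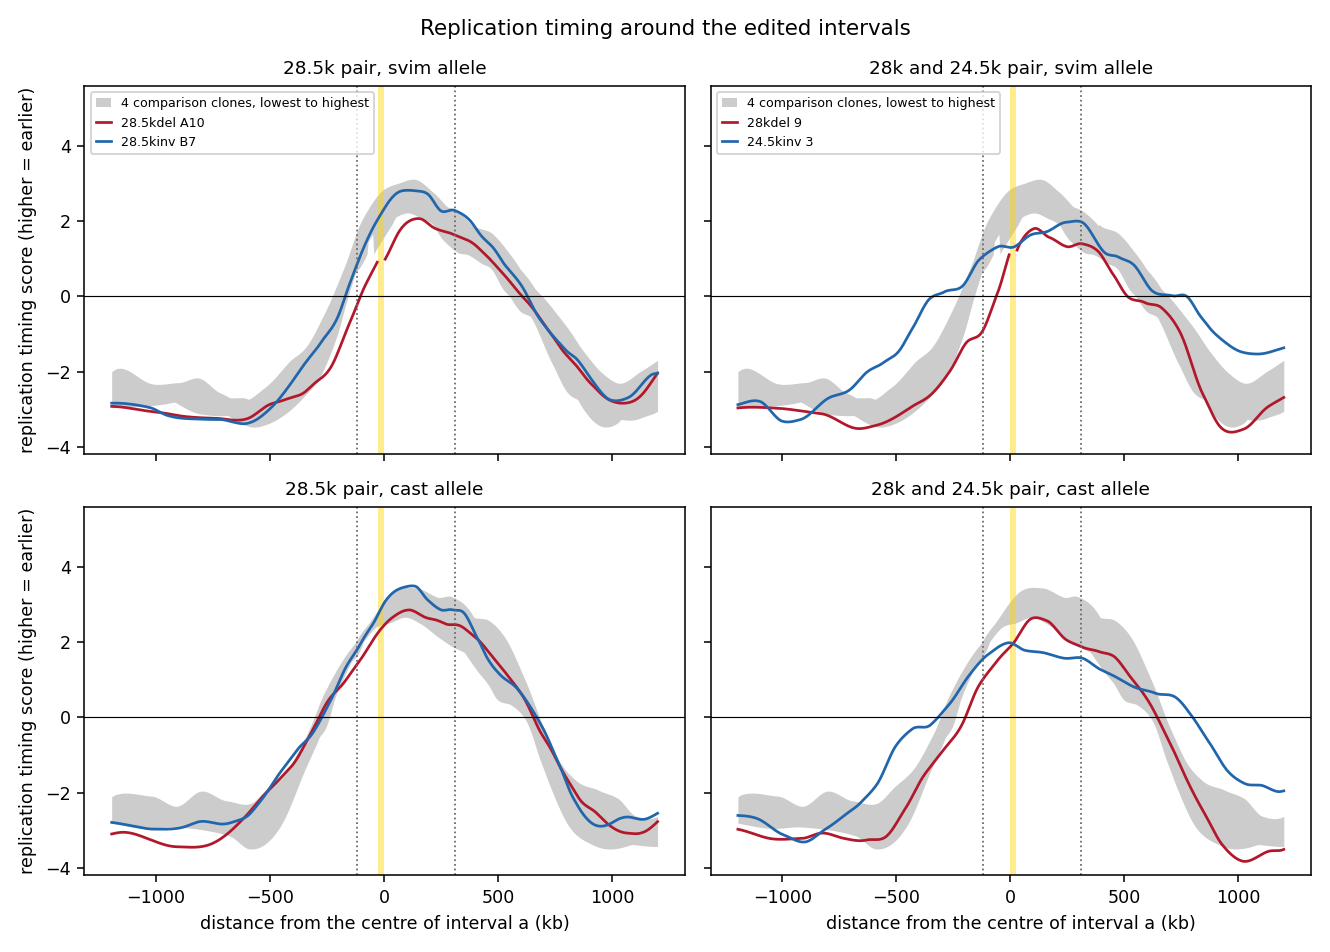
Replication timing score (y axis, authors' units, higher is earlier) against distance from the centre of interval a in kb (x axis) for the 28.5 kb pair (left) and the other pair (right), on svim (top) and cast (bottom). Red lines are deletions, blue lines inversions, grey bands the lowest to highest of the 4 comparison clones, yellow strips the edited interval and dotted lines the domain's ends; both deletions lie below the grey band left of interval a on svim, and the 24.5kinv is low in the domain and high beyond it.

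The 28.5 kb deletion had a lower svim score than the inversion of the same interval over the whole domain, but the difference did not exceed the spread assumed from the comparison clones. The 28.5kdel libraries scored 1.48 and 1.63 on svim and 2.41 and 2.65 on cast. The 28.5kinv libraries scored 1.98 and 2.86 on svim and 2.39 and 3.70 on cast. On svim both inversion libraries were above both deletion libraries, and on cast the ranges overlapped. The comparison clones had a mean of 2.21 ± 0.42 on svim (SD, n = 4, 1.86 to 2.73) and 2.76 ± 0.37 on cast (SD, n = 4, 2.32 to 3.19). The deletion's mean of 1.56 on svim was below all 4 of them, and the inversion's mean of 2.42 was within their range.

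Tested with limma, the 28.5kdel minus the 28.5kinv was -0.86 ± 0.67 on svim (SE, 95% interval -2.17 to 0.44, adjusted p = 0.9997). On cast it was -0.52 ± 0.65 (SE, 95% interval -1.90 to 0.86). None of 1893 windows of the chromosome passed on svim, cast or their difference (0%), with 1, 0 and 10 at an unadjusted p under 0.05. On svim the fit gave every window the same SE, because the spread did not vary between windows beyond what it expects by sampling. That SE of 0.67 was larger than the SD of 0.34 that this difference had over windows over 2 Mb away. The test therefore does not show that the clones are alike. The values rest on the 28.5kinv repeats, of which the second scored higher on both alleles. Without the first the svim difference was -1.30 and the cast difference -1.18, and without the second they were -0.42 and 0.14.

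Although no window passed, the windows of the domain lay at the low end of the chromosome. All 9 domain windows were below 0 in the 28.5kdel minus 28.5kinv difference on svim, from -1.33 to -0.55, and 4 of them were among the lowest 20 of 1893. The lowest on the chromosome was 48300001 to 48350000, which holds the right end of the edit and Dppa2, at -1.33 ± 0.67 (limma adjusted p = 0.9997). By comparison, windows over 2 Mb away ranged from -0.78 to 0.54 between their 2.5 and 97.5 percentiles. The lowest of them was 29800001 to 29850000, at -1.30. A domain window was the lowest under 16 of 21 ways of processing, and at worst the 19th, without the first 28.5kinv library. On cast the best rank of a domain window was 143. The median over all windows was itself -0.15 on svim, and relative to that median the domain lay at -0.71, or between -0.64 and -0.72 over 4 scalings of the columns.

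Against the comparison clones, the deletion and the inversion of this interval lay on different sides of 0 on svim. The 28.5kdel differed from them by -0.66 ± 0.53 and the 28.5kinv by 0.21 ± 0.53 (limma SE, adjusted p = 0.998 and 0.997). Their cast differences were -0.23 and 0.29. Without its second library the 28.5kinv lay below the comparison mean too, by -0.23 on svim and -0.37 on cast, and with columns scaled to common quartiles the 28.5kdel lay at 0.021 on cast. Neither had a window past the threshold on any measure (0%), with 57 at an unadjusted p under 0.05 on svim in each. For the 28.5kinv on svim, 40 windows passed without its first library and 12 without 14kdel D11. The lowest-ranked domain window was the 10th of the chromosome for the deletion and the 586th for the inversion.

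The lower svim score of the deletion extended to the left side of the domain, where the nearest position used lies 49.0 kb from the edit. There the 28.5kdel libraries scored 0.45 and -0.22 on svim, the 28.5kinv libraries 1.33 and 1.09, and the comparison clones 1.17, 2.05, 0.89 and 1.19. Both deletion libraries were below all inversion and comparison libraries, and both inversion libraries were within the comparison range. The 28.5kdel minus the 28.5kinv was -1.09 (95% interval -2.40 to 0.22), and the 28.5kdel minus the comparison clones was -1.21 ± 0.53 (limma adjusted p = 0.998). On cast the same positions read 1.64 and 1.60 in the deletion and 1.88 and 2.22 in the inversion. Farther left, in the 290 kb outside the domain, svim read -1.16 and -2.56 in the deletion, -0.58 and -1.38 in the inversion and -1.59 to -0.31 in the comparison clones. These ranges overlap.

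Directly right of the edit, the first 5 positions read 1.01 and 1.21 on svim in the 28.5kdel libraries and 2.05 and 2.88 in the 28.5kinv libraries. The comparison clones covered 1.73 to 2.90 there, so both deletion libraries were below all of them. In the part right of the 28kdel, which holds intervals b and c, the clone values were 1.82 on svim and 2.67 on cast for the deletion and 2.61 and 3.19 for the inversion. The deletion's score rose from its edges toward interval b, where it was 1.98 on svim, against 2.82 in the inversion and 2.21 to 3.10 in the comparison clones.

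**Figure D2:**
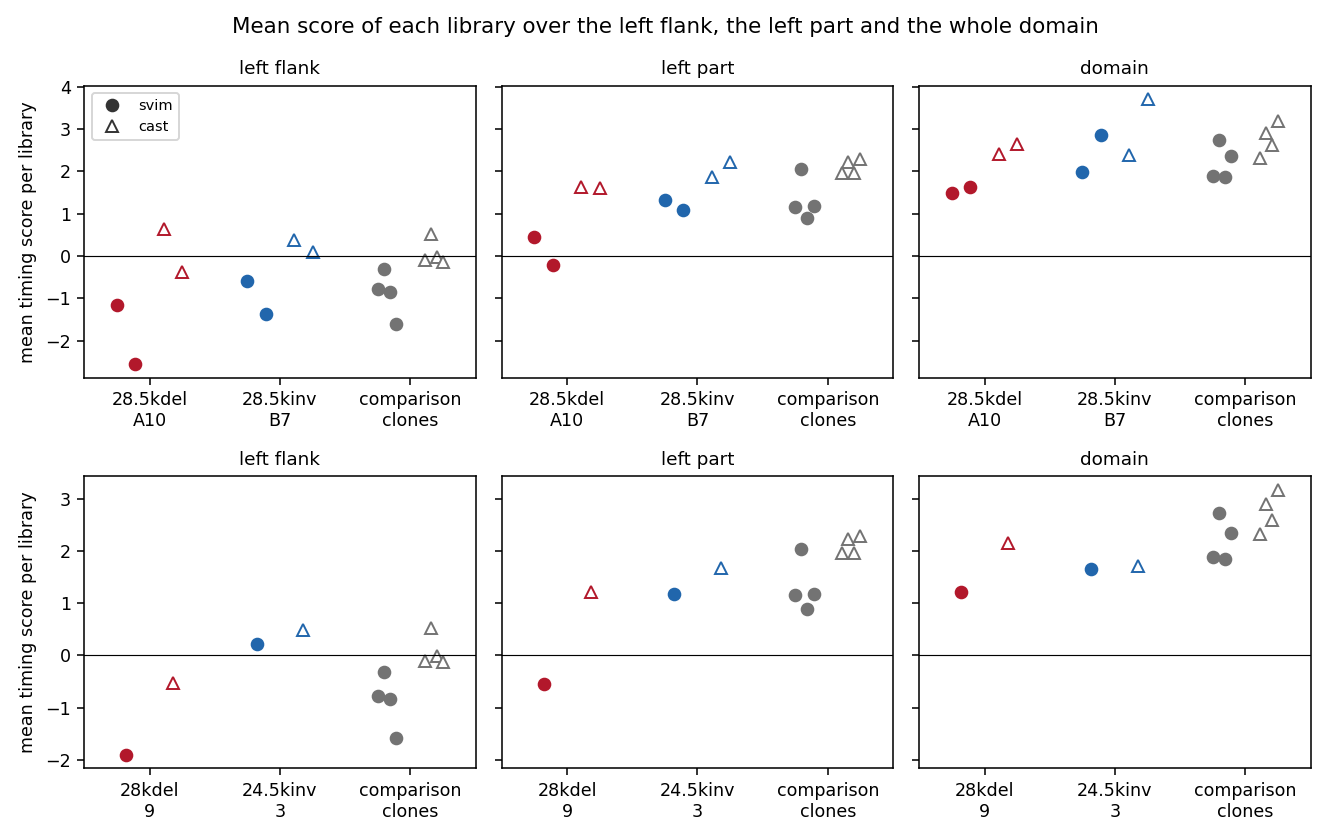
Mean replication timing score (y axis, authors' units) over the left flank, the left part and the domain (columns) for the 28.5 kb pair (top) and the other pair (bottom), with 1 point per library, filled for svim and open for cast. In the left part and the domain, the svim points of both deletions lie below all 4 comparison clones.

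The 28 kb deletion, which removes interval a and all of Dppa2, had the lowest svim domain score of the 4 clones. The 28kdel scored 1.22 on svim and 2.15 on cast, and the 24.5kinv 1.66 and 1.71. With this interval left out, the comparison clones scored 2.20 ± 0.42 on svim (SD, n = 4, 1.84 to 2.72) and 2.75 ± 0.37 on cast (SD, n = 4, 2.32 to 3.18). Both edited clones were below all 4 comparison clones on both alleles, and the inversion was lower than the deletion on cast.

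Over the domain, the 28kdel minus the 24.5kinv was -0.44 ± 0.67 on svim (limma SE, 95% interval -1.75 to 0.86, adjusted p = 0.73) and 0.45 ± 0.65 on cast (adjusted p = 0.76). Against the comparison clones, the 28kdel was -0.98 ± 0.53 on svim (adjusted p = 0.93) and -0.60 ± 0.52 on cast. The 24.5kinv was -0.54 ± 0.53 on svim (adjusted p = 0.46) and -1.04 ± 0.52 on cast (adjusted p = 0.21). None of these passed. Under the common median and interquartile range, which moves the median of all windows of the 24.5kinv from -0.32 to -1.48 on svim, the 24.5kinv passed at -1.70 on svim and -2.25 on cast, and the 28kdel minus the 24.5kinv turned to 0.93 on svim. Relative to the median of all windows, that last difference was -0.39 as deposited and -0.41 under this scaling. An exact permutation test of 1 clone against 4 cannot go below p = 0.2, two-sided, which the 28kdel reached on svim and the 24.5kinv on cast.

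The left side of the domain was where the 28kdel stood lowest. It scored -0.55 on svim there, against 1.18 in the 24.5kinv and 0.89 to 2.05 in the comparison clones. On cast the values were 1.22, 1.68 and 1.96 to 2.28. The svim difference from the comparison clones was -1.87 ± 0.53 (limma adjusted p = 0.22) and from the 24.5kinv -1.73 ± 0.67 (adjusted p = 0.079). Without 14kdel D11 both passed, with adjusted p = 0.028 and 0.029. The window 48200001 to 48250000 was the lowest of all 1892 in the 28kdel minus comparison difference on svim, at -1.86 (adjusted p = 0.22), and a domain window stayed among the lowest 5 under all 14 ways of processing. Windows over 2 Mb away ranged from -1.16 to 0.74 between the same percentiles. No window passed in that comparison on any measure (0%), with 101 on svim at an unadjusted p under 0.05, but 21 on svim and 19 on cast passed without 14kdel D11.

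In the 290 kb left of the domain, the 28kdel was lower than the 24.5kinv on svim by more than the assumed spread. The scores were -1.91 in the 28kdel and 0.22 in the 24.5kinv, a difference of -2.13 ± 0.67 (limma adjusted p = 0.0295). Windows over 2 Mb away ranged from -2.37 to 1.71 in this contrast between the same percentiles as above. The left-flank difference lay inside that range, so a difference of this size was not particular to this stretch. The comparison clones read -0.78, -0.31, -0.84 and -1.59, between these edited clones. The 28kdel differed from them by -1.03 ± 0.53 (adjusted p = 0.93) and the 24.5kinv by 1.11 ± 0.53 (adjusted p = 0.14). The call was lost without 30kdel B11 (adjusted p = 0.193) or 29kdel D8 (0.066), and the difference shrank to -0.86 after quantile normalization and -0.75 under the common median and interquartile range. Relative to the median of all windows it was -2.08 as deposited and -2.08 under the latter scaling.

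Chromosome-wide, 141 of 1892 windows passed between the 28kdel and the 24.5kinv on svim (7.45%), 128 lower and 13 higher in the deletion. None passed on cast or on the svim minus cast difference, with 329 and 148 at an unadjusted p under 0.05. The common median and interquartile range moved the median of all windows from -0.06 to 1.33, and with this shift the counts became 2 windows lower and 409 higher. The svim count as deposited fell to 0 without 30kdel B11 and to 64 without 29kdel D8, and rose to 301, with 207 on cast, without 14kdel D11. The only called window that touches the domain was 48150001 to 48200000, at -1.97 (adjusted p = 0.0447). It ranked 123rd from the lowest, and the lowest were far away, at 95250001 to 95300000 with -3.39 and at 5500001 to 5550000 with -3.33. Windows over 2 Mb away ranged from -2.37 to 1.71 between their 2.5 and 97.5 percentiles, and the called window touching the domain lay inside that range. Left of the domain, the windows from 47850001 to 48050000 passed as well, the lowest at -2.53 (adjusted p = 0.0105). The 24.5kinv was itself called higher than the comparison clones over most of that stretch, from 47850001 to 48000000.

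Beside the deletion, the 5 positions directly left of the 28kdel scored 0.90 on svim in the 28kdel and 1.31 in the 24.5kinv, both below the comparison range of 1.44 to 2.77. In the part right of the edit, svim read 1.52 in the 28kdel and 1.77 in the 24.5kinv, both below the comparison range of 2.00 to 2.83, and cast 2.33 and 1.68, below 2.36 to 3.34. At interval c, svim read 1.38 in the 28kdel and 2.00 in the 24.5kinv, and cast 1.93 and 1.59, against 1.31 to 2.34 and 1.91 to 3.21 in the comparison clones. The order of these clones was therefore opposite on the alleles there, and no test result is given here for interval c.

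The inverted stretches are scored in the order of the reference genome, in which the comparison clones rise slightly toward the right. From the left to the right end of the 28.5 kb interval, the score rose by 0.25 on svim and 0.29 on cast in the 28.5kinv, against 0.11 to 0.30 and 0.04 to 0.21 in the comparison clones. Across the 24.5 kb interval it changed by 0.04 on svim and -0.06 on cast in the 24.5kinv, against 0.05 to 0.19 and 0.03 to 0.14. The slope was not turned around in the 28.5kinv. The 24.5kinv was nearly flat there and as flat over the neighbouring 28.5 kb interval, which it leaves in place, at -0.03 on svim and 0.02 on cast, so the flatness was not particular to its inverted stretch. These intervals span few positions of a score of unstated smoothing, and no test was made.

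**Figure D3:**
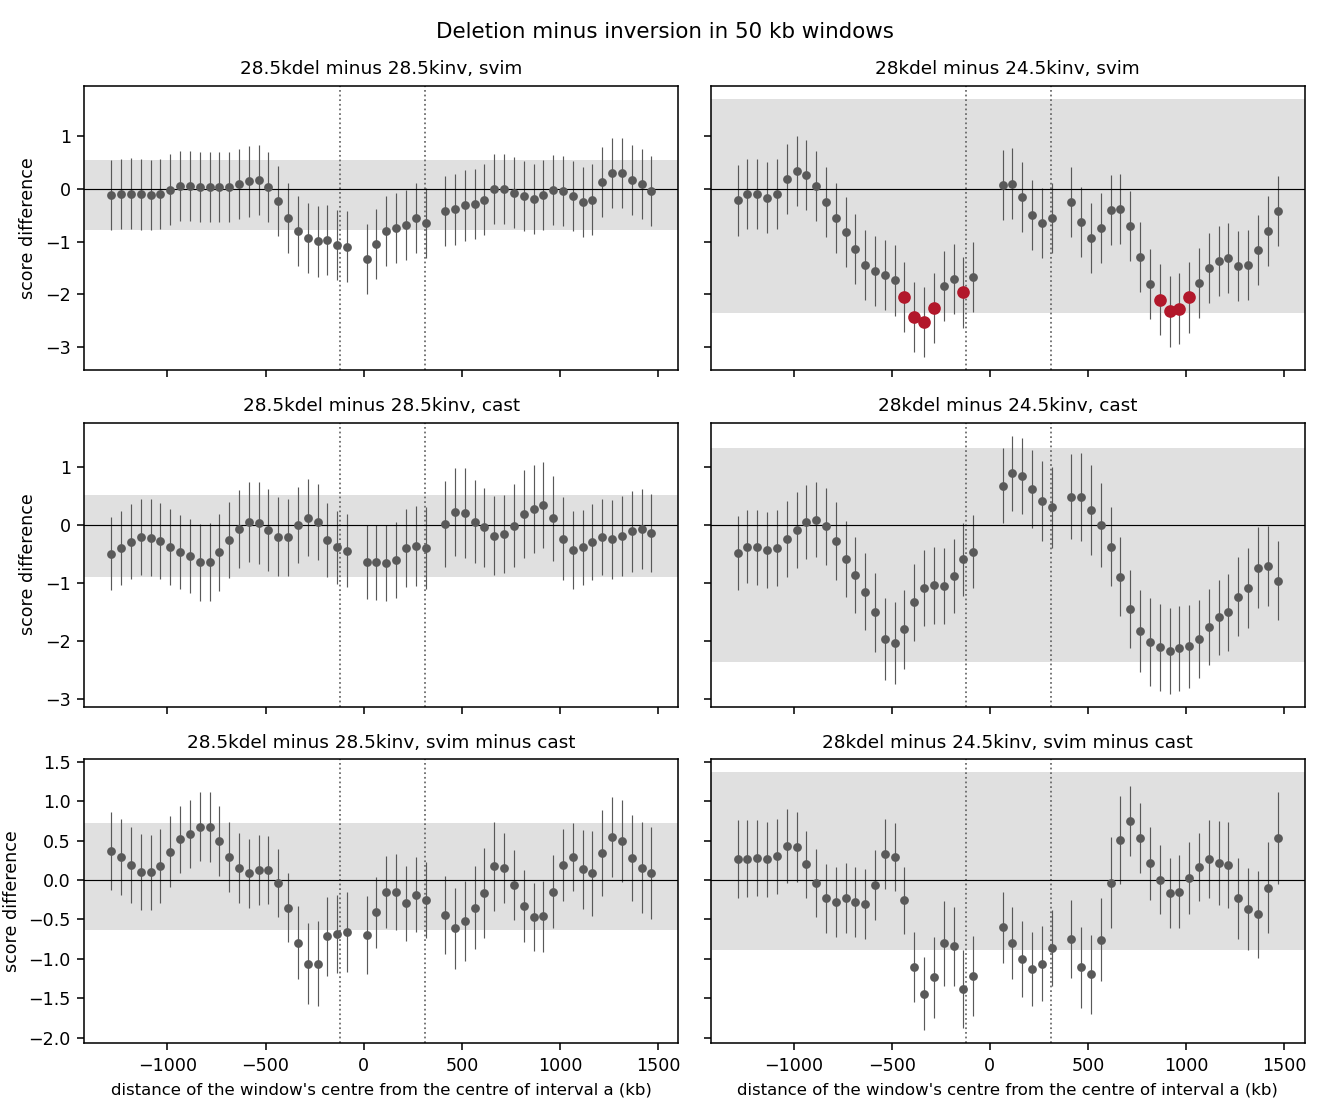
Deletion minus inversion in replication timing score (y axis, authors' units) in 50 kb windows against distance from the centre of interval a in kb (x axis), for each pair (columns) on svim, cast and svim minus cast (rows). Points are differences with bars of 1 SE, red points passed limma at an adjusted p of 0.05, grey bands span the 2.5 to 97.5 percentiles of windows over 2 Mb away, and dotted lines are the domain's ends; the svim points of the 28.5 kb pair fall below their band in the left and middle of the domain.

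Jointly, the deletions had lower scores than the inversions on svim, and no regional difference passed the threshold. With both intervals left out, the deletions minus the inversions came to -0.64 ± 0.47 on svim over the domain (limma SE, adjusted p = 0.79). On cast it came to -0.01 ± 0.46, the mean of a pair at -0.52 and a pair at 0.45, and it describes neither. In the left part it was -1.41 ± 0.47 on svim (limma adjusted p = 0.25), and in the left flank -1.51 ± 0.47 (adjusted p = 0.19). These values use the 24.5kinv. Against the comparison clones, without it, the 28.5kdel and the 28kdel were at -0.66 and -0.98 over the domain, -1.21 and -1.87 in the left part and -0.97 and -1.03 in the left flank. No window passed (0%), with 154 on svim, 117 on cast and 60 on their difference at an unadjusted p under 0.05. The common median and interquartile range moved the median of all windows from -0.15 to 0.56 on svim and from -0.27 to 0.46 on cast, and with it the domain values to 0.053 and 0.77. Relative to that median the domain lay at -0.49 as deposited and -0.50 under this scaling on svim, and at 0.26 and 0.30 on cast. Without the first 28.5kdel library the left part passed, at -1.58 (adjusted p = 0.029), with 68 windows past the threshold on svim. Without the second 28.5kinv library 41 passed, and without 14kdel D11 16 did. The domain difference was not shown to vary between the pairs, with the 28.5 kb pair minus the other pair at -0.38 ± 0.94 on svim and -1.01 ± 0.93 on cast, and no window passed for it (0%). Without the first 28.5kinv library 195 windows passed for it on svim, without the second 28.5kdel library 126 and without 14kdel D11 4, and without the second 28.5kinv library the domain value became 0.061.

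In each clone the svim score was below the cast score over the domain, by a larger margin in the deletions than in their inversions. Svim minus cast was -0.97 in the 28.5kdel, -0.63 in the 28.5kinv, -0.94 in the 28kdel and -0.04 in the 24.5kinv. The comparison clones had -0.54 ± 0.30 (SD, n = 4, -0.82 to -0.17). Both deletions were thus below the comparison range and the 24.5kinv above it. The 28.5kinv was inside it only as the mean of its libraries. Without its first library it differed from the comparison mean by -0.30, which is just below that range, and without its second by 0.14. The deletion minus inversion contrasts of this allele difference were -0.35 ± 0.47 for the 28.5 kb pair and -0.89 ± 0.47 for the other pair (limma adjusted p = 0.65), and -0.63 ± 0.33 for both jointly (adjusted p = 0.997). None passed. The contrast of the 28.5 kb pair was -0.13 without the first 28.5kinv library and -0.56 without the second.

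The allele difference was larger in the left part of the domain than in its right part, in the mean of the comparison clones too. In the left part it was -1.50 in the 28.5kdel, -0.84 in the 28.5kinv, -1.77 in the 28kdel and -0.51 in the 24.5kinv, with -1.10 to -0.18 in the comparison clones. In the left flank the 28.5kdel reached -2.00, against -1.22 in the 28.5kinv and -1.46 to -0.68 in the comparison clones, which differs from the comparison mean by -1.04 ± 0.38 (limma adjusted p = 0.9997). The 28kdel read -1.39 there, inside the comparison range, and the 24.5kinv -0.26. On the right, in the part with intervals b and c, the alleles were closer in each of the 4 edited clones. The comparison clones had the same order, with means of -0.50 there, -0.79 in the left part and -0.95 in the left flank.

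The point where the score crosses 0, going left from the domain's peak, gives the edge of the early stretch in base pairs. On svim it lay 16.2 kb inside the domain in the 28.5kdel and 58.3 kb inside in the 28kdel. It lay 50.4 kb outside in the 28.5kinv, 220 kb outside in the 24.5kinv and 38.1 to 108 kb outside in the comparison clones. In a.del G5, a clone that lacks interval a only, it lay 70.9 kb inside, but in a.del 53 it lay 55.4 kb outside. In the 100kdel clones B6 and C3, whose 100 kb deletion covers interval a, it lay 15.9 and 55.5 kb outside. The repeat libraries spread widely, at 19.1 kb outside and 36.2 kb inside for the 28.5kdel and at 87.3 and 27.2 kb outside for the 28.5kinv. The 2 deletions kept a crossing inside the domain under all 4 scalings of the columns, whereas that of the 24.5kinv moved to 10.7 kb outside after quantile normalization and 14.5 kb inside under the common median and interquartile range.

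On cast, the left crossing lay 165 kb outside in the 28.5kdel, 153 kb in the 28.5kinv, 77.5 kb in the 28kdel and 197 kb in the 24.5kinv, against 120 to 187 kb in the comparison clones. The svim crossing was thus inward of the cast crossing by 182 kb in the 28.5kdel (214 and 155 kb in its libraries), 136 kb in the 28kdel and 103 kb in the 28.5kinv (94.1 and 110 kb). In the comparison clones this distance ranged from 39.6 to 91.1 kb, and in the 24.5kinv it was -22.1 kb, with svim outward of cast. The 24.5kinv moved to 62.2 and 48.8 kb, inside the comparison ranges, under the common median and interquartile range and after quantile normalization. The 28.5kinv lay inside the comparison range under each of the 3 rescalings. Both deletions stayed above it under all 4 scalings. A large distance was not particular to them. As deposited it was 142 kb in a.del G5 and 155 kb in 100kdel B6, but -72.9 kb in a.del 53 and 87.4 kb in 100kdel C3. The stretch with a score above 0 around the domain measured 710 kb on svim in the 28.5kdel, 800 kb in the 28.5kinv, 576 kb in the 28kdel and 1113 kb in the 24.5kinv, against 709 to 922 kb in the comparison clones. As deposited, the 28kdel lay below that range, as did a.del G5 at 484 kb. The stretches of a.del 53, 100kdel B6 and 100kdel C3 lay inside it, at 768, 775 and 793 kb. Under the common median and interquartile range the comparison clones spanned 787 to 855 kb, and after quantile normalization 748 to 841 kb. The 28.5kdel (708 and 705 kb), the 28kdel (721 and 655 kb) and the 24.5kinv (526 and 617 kb) were then all below them. Under common quartiles the comparison clones spanned 688 to 881 kb. There the 28kdel (606 kb) was below them, the 28.5kdel (721 kb) inside their range and the 24.5kinv (1155 kb) above it.

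**Figure D4:**
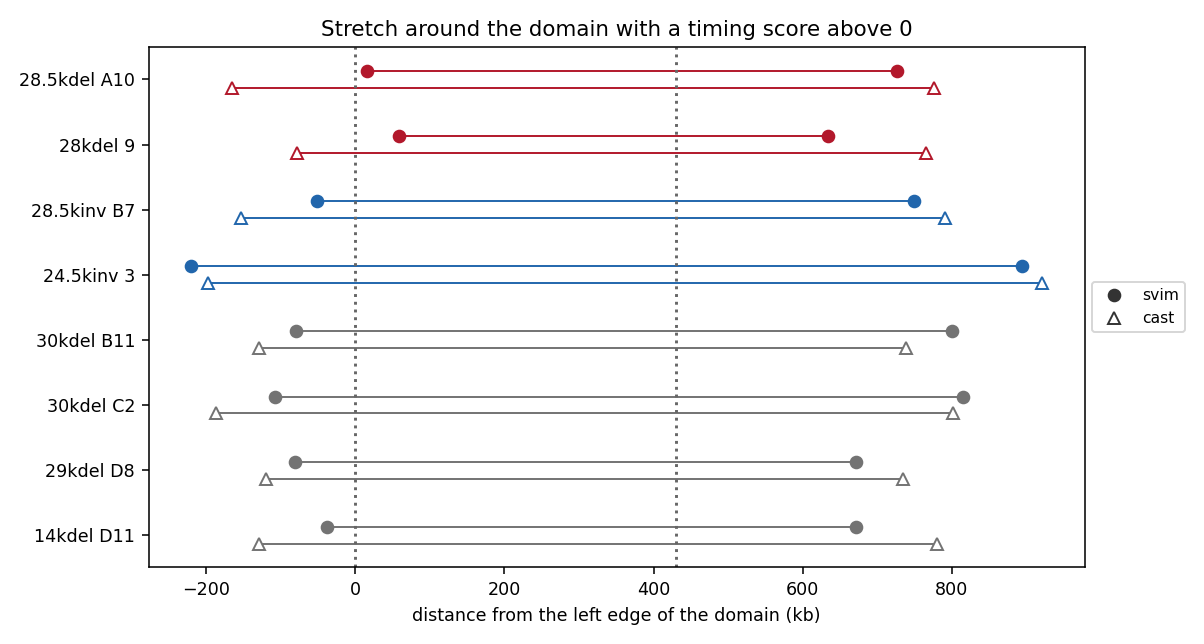
Stretch around the domain with a score above 0 (x axis, kb from the domain's left end) in each edited and comparison clone (y axis), with filled points for svim, open triangles for cast and dotted lines at the domain's ends. On svim the stretch starts inside the domain in the 28.5kdel and the 28kdel and 38.1 to 108 kb outside it in the comparison clones.

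The genes of the domain followed their positions, since a gene's score averages the same positions as the windows. Dppa2, scored over what the 28.5 kb edits leave of it, read 0.99 on svim in the 28.5kdel, 2.37 in the 28.5kinv and 2.22 ± 0.54 in the comparison clones (SD, n = 4, 1.63 to 2.87). The deletion was below all 4 and the inversion among them. The difference between the pair was -1.39 ± 0.72 (limma adjusted p = 0.9997 over 678 genes). On cast Dppa2 read 2.48 and 3.09.

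Dppa4, which the 28kdel leaves whole, read 0.75 on svim in the 28kdel, 1.32 in the 24.5kinv and 1.36 to 2.73 in the comparison clones. The 28kdel minus comparison difference was -1.26 ± 0.57 (limma adjusted p = 0.995). On cast it read 1.74 and 1.97, below the comparison range of 2.45 to 2.90. Morc1 read 1.85 on svim in the 28.5kdel, 2.52 in the 28.5kinv, 1.47 in the 28kdel and 1.88 in the 24.5kinv, against 1.86 to 2.69 in the comparison clones. At this gene the 28kdel was below the lowest comparison clone (1.86), and the 28.5kdel (1.85) and the 24.5kinv (1.88) were close to it.

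Among 678 protein-coding genes of the chromosome, none passed in the 28.5kdel minus 28.5kinv contrast on svim, cast or their difference (0%), with 0, 0 and 2 at an unadjusted p under 0.05. Right of the domain, 7 of 10 scored genes of the right-flank list (Trat1, Bbx and others, but not Cip2a, Ift57 and Cd47) were below 0 on svim in that contrast, with a median of -0.19 against -0.16 over all genes. The left-flank list (Nectin3, Cd96 and others) was above 0 in 8 of 8, with a median of 0.59. These genes lie from 45610440 to 46498535, farther left than the 290 kb left flank scored above. Against the comparison clones, their svim median was -0.98 in the 28.5kinv and -0.15 in the 28.5kdel. In the 28.5kdel minus 28.5kinv contrast, all 10 early control genes were below 0 on svim, with a median of -0.28. The domain's lower values thus stand beside a smaller shift of the same sign in these controls, whose part in them was not tested.

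In the 28kdel minus 24.5kinv contrast on svim, 2 of 678 genes passed (0.295%), both lower in the deletion and both far to the right of the domain. They were Kcnj15, which encodes a potassium channel, at -3.40 ± 0.72 (limma adjusted p = 0.0015), and Pcp4, a regulator of calmodulin, at -2.76 ± 0.72 (adjusted p = 0.0396), both named after their values were seen. All 10 right-flank genes and all 8 left-flank genes were below 0, with medians of -0.70 and -0.78 against 0.22 over all genes, and none passed. Against the comparison clones, the 28kdel had 9 of 10 right-flank genes and 8 of 8 left-flank genes below 0 on svim, with medians of -0.65 and -0.97 against -0.09 over all genes, and no gene passed (0%). The 24.5kinv had 22 genes past the threshold on svim (3.24%), 21 higher and 1 lower, and 13 on cast (1.92%), 12 higher and 1 lower. The lower one on cast was Nectin3, an adhesion molecule of the left-flank list, at -2.09. Nectin3 was not particular to this clone. It was also below the comparison clones on cast in the 28kdel (-2.04), the 28.5kdel (-1.55) and the 28.5kinv (-1.41).

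The deletions were also set beside the clones most like them, a.del, which lacks interval a only, and 100kdel, which lacks 48235965 to 48336454 in clone B6 and 48235966 to 48336426 in clone C3. The latter ends just short of the right end of the 28kdel. Over the domain on svim, the 28.5kdel minus a.del was -0.15 and minus 100kdel -0.28, and the 28kdel minus a.del was -0.50 and minus 100kdel -0.63. None of these domain differences passed in limma. Against 100kdel, 3 windows of the chromosome passed for the 28.5kdel on svim (0.159%), all lower, and 32 for the 28kdel on svim (1.69%), 30 lower and 2 higher, with 2 lower on cast (0.106%). Both svim counts fell to 0 under each of the 3 rescalings and without 30kdel B11. Without 14kdel D11 the 28kdel had 49 on svim and 80 on cast, and the 28.5kdel 8 and 23. Without its second library the 28.5kdel had 28 and 21, and without 30kdel C2 it had 8 and 6 and the 28kdel 36 on cast. No window passed against a.del (0%), but 72 on svim and 37 on cast did for the 28.5kdel without its second library, and 2 and 7 for the 28kdel without 14kdel D11. The a.del mean covers 2 clones that were opposite in allele order, with svim minus cast at 0.57 in a.del 53 and -0.84 in a.del G5, so that it describes neither. The allele difference of the deletions minus 100kdel was -0.12 in each case.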

How the data were processed

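Early and late S-phase DNA was sequenced after BrdU immunoprecipitation, per the labels' protocols, and the submitters' processing notes name Bowtie2, SAMtools, bedtools and mm10. From both fractions the authors made the deposited replication timing score, at 19641 positions of chromosome 16. Its log base, smoothing, scaling and filters are not stated in any source used here, and read depth is unknown. The median interquartile range of the svim columns is 4.60. The design had assumed log2 ratios, and the same test was used on the score. Of the columns, 6 match no listed sample and were among 29 not used.

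Repeat libraries were averaged, so n counts clones. Nothing in the labels says that repeats or clones came from separate cultures, so p-values measure only the spread between these samples, which may be technical. Scores were averaged over 50 kb windows keeping at least 50 percent of their positions, over fixed regions, and over gene bodies (nearest position within 5 kb). limma 3.58.1 (lmFit and eBayes, R 4.3.3, data.table package 1.17.8) was run two-sided, separately for svim, cast and their difference, with Benjamini-Hochberg adjustment over all windows and regions, or all genes, at 0.05. The spread came from the 4 comparison clones, and each lone clone was assumed to vary like them. This assumption did not hold alike for both pairs. Over windows over 2 Mb away, the 28.5kdel minus the 28.5kinv on svim had an SD of 0.34, under its SE of 0.67. The 28kdel minus the 24.5kinv had an SD of 1.08 there, above its SE of 0.67. Adjusted p-values may therefore be too high for the former and too low for the latter. The fits were tested on simulated data, with each window drawn independently from the comparison clones' mean and SD. On svim the simulated median SE was 0.47 for the 28.5kdel minus 28.5kinv and 0.48 for the 28kdel minus 24.5kinv. Both were below the 0.67 of the real fits, and real neighbouring windows are not independent. The counts that follow therefore do not give the recovery in these data. Of 67 entries made lower by 1 score unit, the 28.5kdel minus 28.5kinv fit called 1 on svim and 0 on cast. Of 67 made lower by 2 units it called 18 and 19, and of 66 made lower by 4 units 56 and 55. For the same numbers of entries, the 28kdel minus 24.5kinv fit called 1 and 1, 22 and 2, and 56 and 45. Figures were drawn with matplotlib 3.10.9 in Python 3.11.15.

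The clones, regions and gene lists were chosen with earlier results of these data known. Named are all edited clones, the listed genes, called windows touching the domain and the most changed windows over 2 Mb away. No sequence of the edited stretches was used here. Gene coordinates are RefSeq's for GRCm38.p6.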

Additional observations from a re-analysis of the deposited data

How the results depend on the processing

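Over alternatives other than leaving out a library, 484 regional differences kept their direction and their side of the threshold, 13 changed sign, 5 lost a call and 4 gained one. Windows of 100 and 25 kb gave 118 and 480 called windows on svim, 85 and 292 on cast and, at 25 kb, 17 on their difference for the 24.5kinv minus the comparison clones, and 75 and 289 on svim for the 28kdel minus the 24.5kinv. Leaving out 25 kb beside the intervals, or taking medians over positions, moved the joint deletion minus inversion difference on cast to 0.043 and 0.051. With 30kdel B11 and C2 alone for comparison, the left part of the 28kdel passed against the 24.5kinv (-1.73) and the comparison clones (-2.16). Called windows then numbered 109 on svim and 5 on the allele difference for the 24.5kinv minus comparison, 263 and 258 on svim and cast for the 28kdel minus the 24.5kinv, 31 and 25 for the 28kdel minus comparison, 4 on cast for the 28.5kdel, 3 on svim for the 28.5kinv and 2 on svim between the pairs.

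Moderation with a trend and robust fitting left 68 windows on svim and 49 on cast for the 28kdel minus the 24.5kinv, gave 247 on cast and 5 on the allele difference for the 24.5kinv, and lost the left-flank call (-2.13, adjusted p = 0.127). The spread of all cas/129 clones lost it too (adjusted p = 0.189), with 0 windows on svim, and gave the 24.5kinv 301 on cast and 15 on the allele difference. Quantile normalization gave the 24.5kinv 98 windows on svim, 0 on cast and 39 on the allele difference, left 0 on svim for the 28kdel minus the 24.5kinv and its left flank at -0.86, and changed the sign of the joint difference on cast (0.53) and of the allele differences of the 28.5kdel minus 100kdel (0.17), 28kdel minus 100kdel (0.0070) and 28.5kinv minus comparison (0.054). A common median and interquartile range gave the 24.5kinv -1.70 on svim and -2.25 on cast, with 1133 and 1013 windows, the 28kdel minus the 24.5kinv 0.93 over the domain, -0.75 in the left flank and 411 windows, the 28.5kinv allele difference 0.11, and the joint difference 0.053 on svim and 0.77 on cast. Common quartiles, chosen after seeing the data, gave 14 windows on the allele difference of the 24.5kinv, 0 on svim for the 28kdel minus the 24.5kinv with -2.17 in its left flank (adjusted p = 0.102), 0.021 on cast for the 28.5kdel, 0.11 for the 28.5kinv allele difference and 0.29 for the joint difference on cast. The cause was not tested.

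Leaving out each library or comparison clone in turn, called windows ranged from 0 to 259 on svim, 0 to 217 on cast and 4 to 37 on the allele difference for the 24.5kinv, from 0 to 301 and 0 to 207 on svim and cast for the 28kdel minus the 24.5kinv (64 on svim without 29kdel D8), and from 0 to 21 and 0 to 19 for the 28kdel minus comparison. On svim they ranged from 0 to 40 for the 28.5kinv (12 without 14kdel D11) and 0 to 195 between the pairs. For the joint contrast they ranged from 0 to 68 on svim (16 without 14kdel D11). Domain differences ranged from -1.18 to 0.14 on cast for the 28.5kdel minus the 28.5kinv, from -0.23 to 0.64 on svim, -0.37 to 0.94 on cast and -0.30 to 0.14 on the allele difference for the 28.5kinv (0.043 without 30kdel C2), from -0.34 to 0.33 on cast for the joint contrast and from -0.82 to 0.061 on svim between the pairs. The left part ranged from -1.58 to -1.24 for the joint contrast and from -2.02 to -1.63 for the 28kdel minus comparison (-1.92 without 14kdel D11), and stayed at -1.73 against the 24.5kinv, as the left flank did at -2.13, since no comparison clone enters those values.

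The repeat libraries share replicate numbers, but there are only 2 pairs and no label ties a number to a batch. Their deviations correlated at 0.65 on svim and 0.61 on cast. With libraries as replicates and the number as a replicate block, the 28.5kdel minus the 28.5kinv was -0.86 on svim over the domain (limma adjusted p = 0.997) and -1.09 in the left part (0.585), and 0 windows passed with or without the block. Each edit is 1 clone, so clone and edit cannot be told apart, and the comparison clones carry edits of their own.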
